A study of Mus musculus with 40 samples.

Results

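Messenger RNA of 8 complement genes was followed in the left somatomotor cortex of 3xTg-AD mice given 1 to 5 closed head injuries (CHI). The genes, chosen by name as complement components and receptors with earlier results of these data known, were the C1q chains C1qa, C1qb and C1qc, the components C4b and C3, the inhibitor Serping1 and the anaphylatoxin receptors C3ar1 and C5ar1. They are 8 of 55539 features in the count table, and 6 of the 8 were among the 15232 features with enough counts to be tested. C3 and C5ar1 were not. The most marked differences were uneven between mice: the 9 analysed samples after 3xCHI were above every sham-injured sample in C1qa, C1qb, C1qc and C3ar1 (sample 30, not among them, was so only in C3ar1), whereas after 5xCHI a pair of mice was far above all others and 4 mice were at or near sham-injured levels.

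Complement is a cascade of proteins that tags particles, cells and synapses for removal and attracts immune cells. In its classical pathway the C1q complex, built from the A, B and C chains, binds a target and activates C4 and then C3, and the cleaved fragments C3a and C5a act on the receptors encoded by C3ar1 and C5ar1. In brain tissue C1q and both receptors are known chiefly from microglia, the resident macrophages, C4 and C3 are made by astrocytes among other cells, and C1q and C3 are known for marking synapses that microglia remove.

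The animals were female 3xTg-AD mice on a C57BL/6J background, aged 2 to 4 months when the study was run. This line carries mutant human APP and tau transgenes driven by the neuronal Thy1 promoter and a mutant presenilin gene, in every group including sham, so no wild-type mice were compared. Mice under isoflurane received a weight-drop impact on the closed skull once a day, and sham-injured mice received the anesthesia without the impact. The study matched sham exposures to each injured group and then combined the sham-injured mice. How often those sequenced here were exposed is not given in the labels. Samples were taken 0.5, 4 or 24 h after 1xCHI (3, 3 and 4 mice), after 3xCHI (3, 2 and 4 mice) and after 5xCHI (3, 3 and 4 mice), at 24 h after 2xCHI (3 mice) and 4xCHI (3 mice), and from 4 sham-injured mice, which served as the group before injury. These 39 samples exclude sample 30 (3xCHI at 4 h), which the study had also left out. Bulk tissue was sequenced from separate mice, so p-values measure the spread between these animals, and more cells of a type and more RNA per cell cannot be told apart.

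Libraries held 15925995 to 27859530 counts, and levels are given as CPM, the usual library-scaled read count. All 8 neuronal markers examined had counts, and their summed level ranged from 7096 to 12055 CPM. Samples 10 (5xCHI at 4 h) and 11 (5xCHI at 24 h) stood apart: their 15 microglial markers summed to 976 and 1148 CPM, against 331 to 599 CPM in the other samples, and their 12 reactive astrocyte markers to 2273 and 3736 CPM, against 177 to 783 CPM. Samples numbered 1 to 18 also differed from those numbered 19 to 40, a division seen in an earlier analysis of these data and not a batch named by the study. Sham-injured mice were unevenly spread over it, with 1 in the lower and 3 in the upper range, 2xCHI and 4xCHI were wholly in the upper range, and 1xCHI, 3xCHI and 5xCHI had 6, 5 and 6 samples in the lower and 4 each in the upper range.

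Per kilobase of exon, the C1q chains were the most abundant of the 8 genes. The mean over 39 samples was 37.7 CPM per kb for C1qb, 32.9 for C1qa and 17.6 for C1qc. C4b followed at 7.45 and Serping1 at 2.68 CPM per kb. The receptors were scarce, with 0.654 CPM per kb for C3ar1 and 0.144 for C5ar1, and C3, the central component of the cascade, was the lowest at 0.110. C3 had fewer than 10 counts in 19 samples and C5ar1 in 30, which is why neither passed the filter (10 counts or more in all but 4 samples).

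C1qa, C1qb and C1qc are neighbours on the minus strand of chromosome 4, at chr4:136895917-136898803, chr4:136880129-136886187 and chr4:136889804-136893065 (GRCm38, GENCODE M21). Because the chains ranked the samples alike (values given further on), the 250 bases before the gene start are shown for the C1q genes with an entry in the RefSeq promoter table (GRCm38.p6). C1qa had no entry there. Capitals mark the letters GAGGAA, or TTCCTC on the other strand, the core bound by the myeloid factor PU.1.
C1qb (minus strand, chr4:136886201-136886450): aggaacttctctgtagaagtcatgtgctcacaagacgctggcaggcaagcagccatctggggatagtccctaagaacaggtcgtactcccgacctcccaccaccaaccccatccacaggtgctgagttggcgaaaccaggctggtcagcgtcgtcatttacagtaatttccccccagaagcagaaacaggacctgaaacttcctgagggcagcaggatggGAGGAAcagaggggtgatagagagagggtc
C1qc (minus strand, chr4:136892915-136893164): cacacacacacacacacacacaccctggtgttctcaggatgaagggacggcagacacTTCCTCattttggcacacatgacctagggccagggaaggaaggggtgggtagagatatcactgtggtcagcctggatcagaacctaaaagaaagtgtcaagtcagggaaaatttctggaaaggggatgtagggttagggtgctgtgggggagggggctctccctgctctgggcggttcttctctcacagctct
The match began at position -30 from the RefSeq start in C1qb and at position -193, on the opposite strand, in C1qc. The C1qc window overlaps the gene's own span in GENCODE M21. Of 32851 promoter windows of this length in the table, 23.3% held the motif on either strand, so a match is common. The STAT letters TTCNNNGAA (7.02% of windows) and the C/EBP letters TTGCNNAA (9.56% of windows) were not in either C1q window. Entries also existed for C3, C3ar1 and C5ar1. Only C3 held any of the 3 motifs, TTGCGAAA at position -45. No entry was found for C4b or Serping1. These matches are descriptions of the letters in a window and not binding sites.

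**Figure D1:**
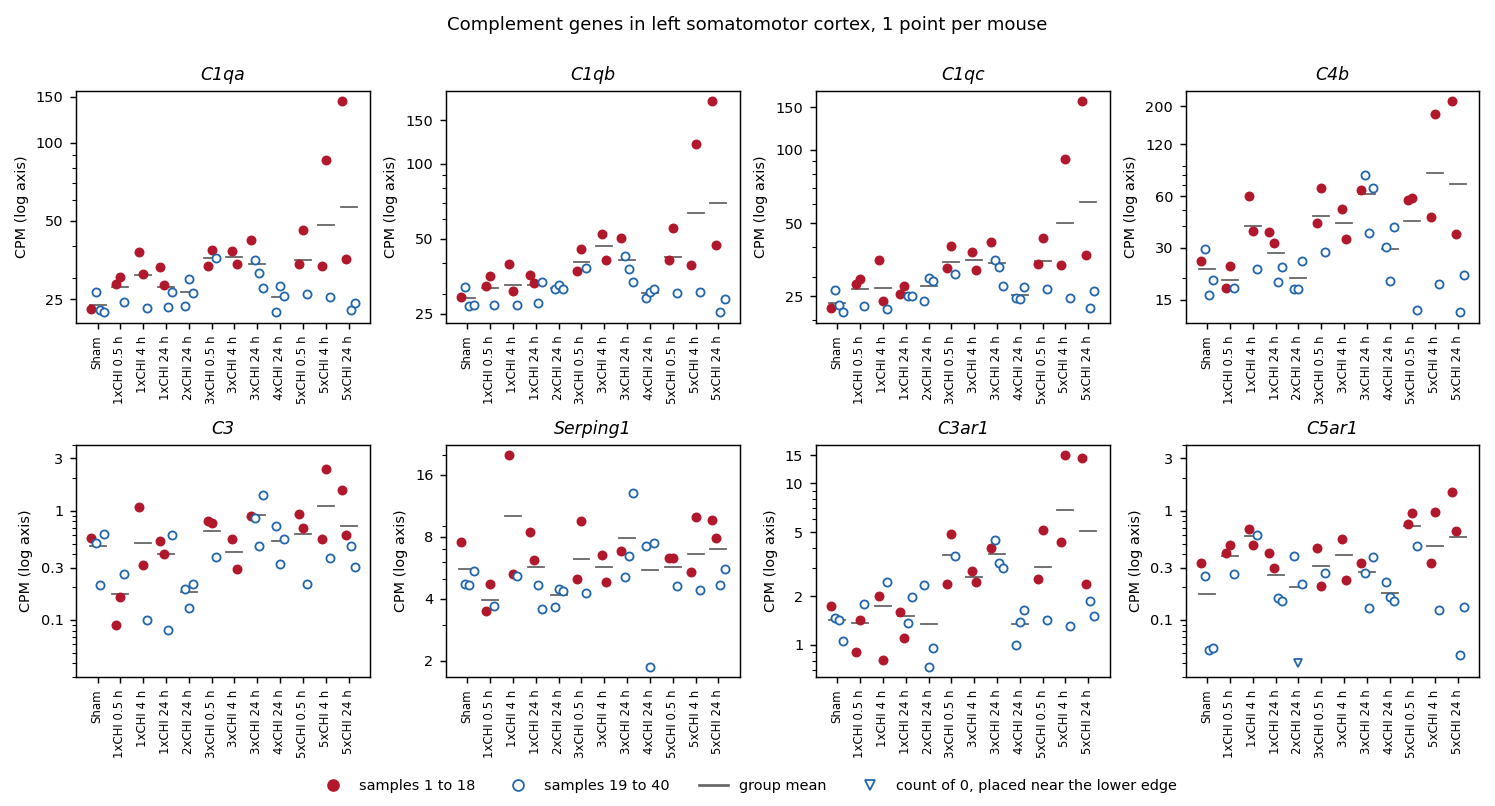
CPM of the 8 complement genes on log axes, 1 point per mouse, in the 12 groups of injury number and time. Filled points are samples 1 to 18, open points samples 19 to 40 and lines group means. The highest points after 5xCHI in the C1q genes, C4b and C3ar1 are samples 10 and 11.

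C1qa, the A chain of C1q, was at 22.9, 26.7, 22.6 and 22.3 CPM in the 4 sham-injured mice. After 1xCHI it ranged from 23.2 to 38.1 CPM (median 28.5, n = 10), and 6 of 10 samples were above the highest sham-injured sample. After 2xCHI it was 23.5, 29.9 and 26.5 CPM, and after 4xCHI 22.2, 28.1 and 25.7 CPM. Both of these groups overlapped the sham-injured mice. After 3xCHI the 9 samples ranged from 27.5 to 42.3 CPM (median 35.3), and none overlapped. C1qa after 5xCHI was 34.2, 46.1 and 26.1 CPM at 0.5 h, 33.6, 86.0 and 25.4 CPM at 4 h, and 144, 35.7, 22.6 and 24.1 CPM at 24 h. The values of 86.0 and 144 CPM belonged to samples 10 and 11 and were 3.64 and 6.12 times the sham-injured mean, while samples 31 to 34 were no higher than the highest sham-injured sample.

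C1qb, the B chain, had the same pattern. It was 29.3, 32.0, 27.0 and 27.2 CPM in sham-injured mice, 27.2 to 39.7 CPM (median 32.8, n = 10) after 1xCHI and 33.7 to 52.3 CPM (median 41.0, n = 9) after 3xCHI. After 5xCHI it ranged from 25.3 to 179 CPM (median 40.1, n = 10), with 120 CPM in sample 10 and 179 CPM in sample 11. The 3 samples after 2xCHI (31.5 to 32.6 CPM) and the 3 after 4xCHI (29.1 to 31.5 CPM) were close to the sham-injured range.

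C1qc, the C chain, was 22.5, 26.6, 23.1 and 21.5 CPM in sham-injured mice. It ranged from 22.3 to 35.2 CPM (median 25.4, n = 10) after 1xCHI, from 27.6 to 41.8 CPM (median 33.0, n = 9) after 3xCHI and from 22.4 to 159 CPM (median 33.8, n = 10) after 5xCHI. Samples 10 and 11 had 92.1 and 159 CPM. Across the 39 samples Spearman's rho of log2 CPM was 0.95 between C1qa and C1qb, 0.91 between C1qa and C1qc and 0.94 between C1qb and C1qc. In samples 19 to 40 alone the 3 values were 0.86, 0.81 and 0.84 (n = 21).

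All 3 C1q chains, and C3ar1, were thus without overlap between 3xCHI and sham-injured mice, which makes 4 of the 6 tested members, whereas 0.23% of all tested features had every 3xCHI sample above every sham-injured sample. Within samples 19 to 40 the same 4 genes did not overlap (4 samples against 3), where 3.11% of features did the same. Sample 30, left out here, was inside the sham-injured range in C1qa (24.9 CPM), C1qb (27.9 CPM) and C1qc (22.9 CPM), and with it only C3ar1 (2.19 CPM) would be without overlap. No test across all features called them. The log2 fold change after 3xCHI, with the time points combined, was 0.56 (SE 0.302) for C1qa, 0.53 (SE 0.315) for C1qb and 0.55 (SE 0.316) for C1qc, each with an adjusted p of 0.908 (edgeR quasi-likelihood test, Benjamini-Hochberg over 15232 features). The unadjusted p-values were 0.0705, 0.102 and 0.0908.

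After 5xCHI the C1q chains had larger fold changes and a wider spread. Against sham the log2 fold change was 0.99 (SE 0.304) for C1qa, 1.01 (SE 0.317) for C1qb and 1.06 (SE 0.319) for C1qc, with adjusted p-values of 0.358, 0.363 and 0.358. Without samples 10 and 11 these values were 0.39, 0.37 and 0.41. Among samples 19 to 40 only they were 0.046, 0.0030 and 0.081. The coefficient of variation of C1qa was 8.71% in sham-injured mice, 12.2% after 3xCHI and 81.0% after 5xCHI.

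C4b, on chr17:34728380-34743882 (GRCm38, minus strand), encodes the mouse form of complement C4 that C1 cleaves. Its near copy C4a lies on the same chromosome at chr17:34809092-34823464, so reads could have been divided between them in the counting and C4b values are uncertain to that extent. C4a was far less abundant, with a mean of 2.65 CPM against 42.4 CPM for C4b. C4b in sham-injured mice was 25.0, 29.5, 15.9 and 19.6 CPM. It ranged from 17.5 to 60.5 CPM (median 23.4, n = 10) after 1xCHI, where sample 15 (4 h) was the highest, and from 28.4 to 79.3 CPM (median 50.6, n = 9) after 3xCHI. In 8 of 9 samples after 3xCHI it was above the highest sham-injured sample.

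C4b after 2xCHI was 17.3, 17.3 and 25.1 CPM and after 4xCHI 30.2, 19.1 and 39.5 CPM. After 5xCHI it was 56.8, 58.6 and 13.0 CPM at 0.5 h, 45.6, 180 and 18.5 CPM at 4 h, and 214, 36.0, 12.6 and 20.8 CPM at 24 h. The 6 samples numbered 1 to 18 were all above the sham-injured mice, and the 4 numbered 31 to 34 were all below 21 CPM, inside or under the sham-injured range. The log2 fold change against sham was 1.20 (SE 0.528, adjusted p = 0.908) after 3xCHI and 1.50 (SE 0.53, adjusted p = 0.373) after 5xCHI. The latter was 0.53 without samples 10 and 11 and -0.42 in samples 19 to 40 only.

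C3, at chr17:57203970-57228136 (minus strand), is the component on which all complement pathways converge. Its counts were 2 to 52 per library. C3 was 0.559, 0.503, 0.210 and 0.611 CPM in sham-injured mice, 0.0801 to 1.09 CPM (median 0.292, n = 10) after 1xCHI, 0.130 to 0.213 CPM after 2xCHI (n = 3) and 0.322 to 0.720 CPM after 4xCHI (n = 3). After 3xCHI it ranged from 0.291 to 1.40 CPM (median 0.773, n = 9) and after 5xCHI from 0.211 to 2.39 CPM (median 0.576, n = 10), with the highest values in samples 10 (52 counts) and 11 (32 counts). Each injured group overlapped the sham-injured mice. In a fit of all features with any count, which kept C3, its log2 fold change was 0.60 (SE 0.531, adjusted p = 0.887) for 3xCHI against sham, 0.75 (SE 0.523, adjusted p = 0.641) for 5xCHI against sham and 1.25 (SE 0.389, adjusted p = 0.152) for 5xCHI against 1xCHI at matched times.

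Serping1, at chr2:84765387-84775444 (minus strand), encodes the C1 inhibitor, which blocks the C1 proteases and so restrains the classical pathway. Serping1 was 7.54, 4.74, 4.68 and 5.44 CPM in sham-injured mice, with medians of 4.95 CPM after 1xCHI (3.49 to 19.8, n = 10), 4.37 CPM after 2xCHI (n = 3), 6.45 CPM after 3xCHI (4.26 to 13.0, n = 9), 7.20 CPM after 4xCHI (n = 3) and 5.92 CPM after 5xCHI (4.40 to 9.93, n = 10). Every group overlapped the sham-injured mice. Its log2 fold change against sham was 0.29 (SE 0.355, adjusted p = 0.908) after 3xCHI and 0.20 (SE 0.350, adjusted p = 0.801) after 5xCHI.

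The highest Serping1 values were in sample 15 (19.8 CPM, 1xCHI at 4 h) and sample 38 (13.0 CPM, 3xCHI at 24 h). These were also the samples in which the 8 meningeal fibroblast markers summed highest, to 452 and 253 CPM, against 55.9 to 203 CPM in the rest. In samples 10 and 11, far out in the C1q chains, C4b and C3ar1, Serping1 was 9.93 and 9.64 CPM, or 1.77 and 1.72 times the sham-injured mean. Over the 39 samples Serping1 and the meningeal sum correlated on log2 scales with Pearson's r = 0.696 (permutation p = 1e-05, adjusted 1.71e-05) and Spearman's rho = 0.572 (permutation p = 0.00025, adjusted 0.000429). Without samples 15 and 38 r was 0.494, and r was 0.617 in samples 1 to 18 (n = 18) and 0.838 in samples 19 to 40 (n = 21). The permutations ran freely over all 39 samples, so their p-values also reflect differences shared by the samples of a group or range. The part of meningeal tissue in the Serping1 values was not tested.

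C3ar1, at chr6:122847138-122856161 (minus strand), encodes the receptor for C3a, a fragment released when C3 is cleaved. In sham-injured mice it was 1.73, 1.47, 1.42 and 1.05 CPM, from 19 to 41 counts per library. After 1xCHI it ranged from 0.803 to 2.44 CPM (median 1.51, n = 10), and after 4xCHI it was 0.996, 1.39 and 1.64 CPM. Both groups overlapped sham, as did 2xCHI with 2.36, 0.734 and 0.960 CPM. After 3xCHI C3ar1 was 2.40, 4.84 and 3.56 CPM at 0.5 h, 2.85 and 2.45 CPM at 4 h, and 3.98, 4.47, 3.20 and 2.99 CPM at 24 h. None of these 9 values overlapped sham-injured mice, and the medians differed 2.22-fold.

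C3ar1 after 5xCHI was 2.56, 5.15 and 1.43 CPM at 0.5 h, 4.34, 14.9 and 1.30 CPM at 4 h, and 14.4, 2.37, 1.86 and 1.52 CPM at 24 h. Samples 10 and 11 were 10.5 and 10.2 times the sham-injured mean. The other 4 samples numbered 1 to 18 were also above all sham-injured mice, whereas samples 31 to 34 ranged from 1.30 to 1.86 CPM. The log2 fold change against sham was 1.25 (SE 0.511, adjusted p = 0.908) after 3xCHI and 1.78 (SE 0.512, adjusted p = 0.358) after 5xCHI. The 5xCHI value was 0.84 without samples 10 and 11 and 0.22 in samples 19 to 40 only.

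C5ar1, at chr7:16246743-16259540 (minus strand), encodes the receptor for C5a and was counted 0 to 31 times per library. In sham-injured mice it was 0.335, 0.251, 0.0526 and 0.0555 CPM, and after 1xCHI 0.148 to 0.673 CPM (median 0.410, n = 10). It ranged from 0.128 to 0.546 CPM (median 0.270, n = 9) after 3xCHI and from 0.0478 to 1.49 CPM (median 0.561, n = 10) after 5xCHI, while the 3 samples after 4xCHI had 0.149 to 0.221 CPM. Sample 21 (2xCHI) had no count, which allows a level of up to 0.130 CPM (3 counts, counting error only). Each injured group overlapped the sham-injured mice. In the fit of all features with any count its log2 fold change was 1.68 (SE 0.616, adjusted p = 0.529) for 5xCHI against sham and 1.13 (SE 0.619, adjusted p = 0.488) for 1xCHI against sham.

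None of the 6 tested members was called against sham at any injury number by edgeR, DESeq2 or limma, and 0% of all 15232 features was called by edgeR in each of these 5 comparisons. At an unadjusted p under 0.05 edgeR gave 0 members after 1xCHI, 2xCHI and 4xCHI (against 17%, 4.44% and 1.62% of all features), 2 after 3xCHI (C4b and C3ar1, against 3.87% of all features) and 5 after 5xCHI (all but Serping1, against 11.6%). The median log2 fold change of the 6 was 0.56 after 3xCHI and 1.04 after 5xCHI, where the median of all features was -0.0043 and 0.0035. It was 0.20, 0.034 and 0.078 after 1xCHI, 2xCHI and 4xCHI.

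**Figure D2:**
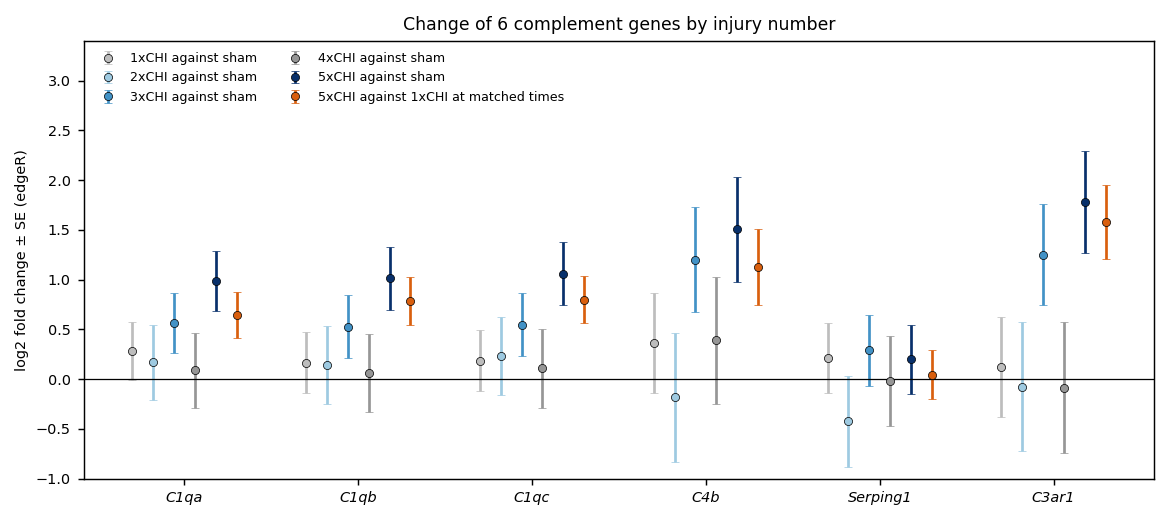
Log2 fold change with its standard error from edgeR for the 6 tested members, for each injury number against sham-injured mice with time points combined and for 5xCHI against 1xCHI at matched times. Values after 3xCHI and 5xCHI lie highest in the C1q genes, C4b and C3ar1, from 0.53 to 1.78, and Serping1 lies between -0.42 and 0.29.

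To set repeated against single injury, 5xCHI was compared with 1xCHI as the mean of the differences at 0.5, 4 and 24 h. Only the time after the last injury was equal. Time since the first injury and the number of anesthesia exposures also differed and cannot be told apart from injury number. C3ar1 rose in this comparison, with a log2 fold change of 1.58 (SE 0.375, adjusted p = 0.0333, edgeR), and was the only member called. Of all 15232 features, 1.08% were called. C1qb (0.79, SE 0.24, adjusted p = 0.0843), C1qc (0.80, SE 0.239, adjusted p = 0.0799), C4b (1.13, SE 0.384, adjusted p = 0.124) and C1qa (0.65, SE 0.230, adjusted p = 0.144) missed the threshold. Without sample 11 these 4 values were 0.45, 0.45, 0.60 and 0.31, and without both samples 10 and 11 they were 0.17, 0.19, 0.16 and 0.075. Serping1 had a log2 fold change of 0.047 (SE 0.250, adjusted p = 0.951).

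The call of C3ar1 depended on the samples included. Leaving out any of samples 7, 8, 10, 11, 13, 14, 15, 16, 17 or 18 ended it, with adjusted p-values from 0.0583 to 0.129 and log2 fold changes of 1.13 (without sample 11) to 1.62. In these fits 0% to 1.13% of all features were called. The value was 1.38, 1.16 and 1.13 without samples 8, 10 and 11, and 1.47 to 1.62 without any of the others listed. Leaving out any of the 10 other samples of the groups kept the call, with log2 fold changes of 1.56 to 1.74 and 0.814% to 4.22% of all features called. Without both samples 10 and 11 the value was 0.71 (SE 0.258, adjusted p = 0.149). It was also not called by limma-trend (adjusted p = 0.102) or in a fit of the 6 compared groups alone (adjusted p = 0.317).

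Within the sample ranges the values diverged. In samples 1 to 18, a subset chosen after the values were seen, C3ar1 was 0.803 to 2.02 CPM in 6 mice after 1xCHI and 2.37 to 14.9 CPM in 6 mice after 5xCHI. These did not overlap, as in 2.81% of all features, and the log2 fold change was 2.34 (SE 0.470, adjusted p = 0.0119). C1qb, C1qc and C4b were called there as well (1.09, 1.10 and 1.48, adjusted p = 0.0338, 0.0359 and 0.0309), with 14.2% of all features called. In samples 19 to 40 C3ar1 was 1.36 to 2.44 CPM in 4 mice after 1xCHI and 1.30 to 1.86 CPM in 4 mice after 5xCHI, and the log2 fold change was -0.40 (SE 0.333, adjusted p = 0.667). The C1q chains there had values of 0.046 to 0.10 and C4b -0.35, with no member called, against 0.0449% of all features, and no member without overlap, against 1.27%. The difference between the ranges itself was not tested.

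**Figure D3:**
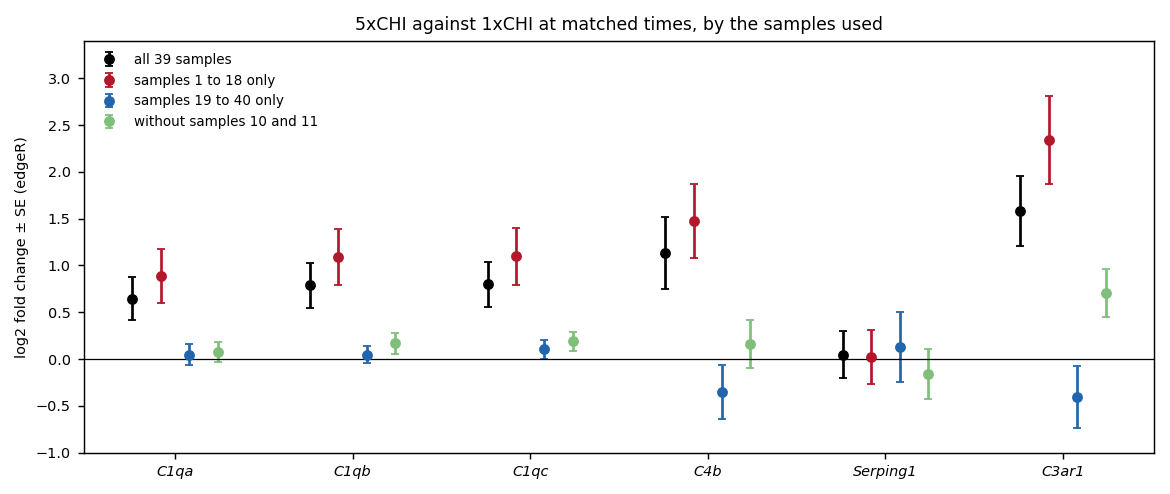
Log2 fold change with its standard error from edgeR for 5xCHI against 1xCHI at matched times, for the 6 tested members, in all 39 samples, in samples 1 to 18, in samples 19 to 40 and without samples 10 and 11. In C3ar1 the 4 values are 1.58, 2.34, -0.40 and 0.71.

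3xCHI compared with 1xCHI at matched times gave 1.07 (SE 0.392, adjusted p = 0.421) for C3ar1, 0.80 (SE 0.397, adjusted p = 0.542) for C4b and 0.28 to 0.38 for the C1q chains (adjusted p = 0.633 to 0.712). No member and 0% of all features was called, and 1 member, C3ar1, had an unadjusted p under 0.05 (9.3% of all features). The 5 samples after 3xCHI in the lower range did not overlap with the 6 after 1xCHI in C3ar1, as in 4.31% of features. In the upper range C1qa, C1qb, C1qc, C4b and C3ar1, 5 of the 6 tested members, did not overlap between 4 mice after 3xCHI and 4 after 1xCHI, as in 2.34% of features. Sample 30, left out here, also belongs to the upper range. It had 2.19 CPM of C3ar1, 16.3 of C4b and 27.9 of C1qb, below the highest 1xCHI sample there in each, so with it these genes would overlap. The comparisons of 3xCHI and 5xCHI with 1xCHI share the 1xCHI samples.

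Samples taken after an injury were next compared with the group that stood for the state before it (sham-injured mice for the 1st, 2xCHI at 24 h for the 3rd and 4xCHI at 24 h for the 5th injury). No member was called in these 9 comparisons by edgeR, DESeq2 or limma, and 0% of all features was called by edgeR. After the 1st injury the largest value among the 6 tested members was that of Serping1 at 4 h (0.84, SE 0.416, adjusted p = 0.479), a group that contains sample 15. C5ar1, in the fit of all features with any count, was at 1.16 (SE 0.756), 1.68 (SE 0.739) and 0.47 (SE 0.749) at 0.5, 4 and 24 h, with adjusted p-values of 0.556, 0.686 and 0.991. After the 3rd, C3ar1 was 1.40 (SE 0.687), 0.96 (SE 0.767) and 1.43 (SE 0.652) at 0.5, 4 and 24 h, and C4b was 1.18, 1.08 and 1.63, with adjusted p-values from 0.952 to 1. Leaving out 1 library moved the C3ar1 values to between 1.08 and 2.07 at 0.5 h, 0.65 and 1.64 at 4 h and 1.11 and 2.10 at 24 h, in each case lowest without sample 21 and highest without sample 19, both of 2xCHI. At 24 h C4b, C3ar1 and Serping1 (0.92, SE 0.433) had unadjusted p-values of 0.0217, 0.0364 and 0.042, where 4.51% of all features were under 0.05. In the fit of all features with any count C3 was at 1.81 (SE 0.756, unadjusted p = 0.0215) at 0.5 h, 1.19 (SE 0.872, unadjusted p = 0.18) at 4 h and 2.32 (SE 0.708, unadjusted p = 0.00212) at 24 h after the 3rd injury, with an adjusted p of 1 for each. The 2xCHI group it was set against was itself low in C3 (-1.37 against sham, SE 0.769, adjusted p = 0.917).

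After the 5th injury C3ar1 was 1.17 (SE 0.698), 2.32 (SE 0.687) and 1.86 (SE 0.658) at 0.5, 4 and 24 h, with adjusted p-values of 0.801, 0.907 and 0.654. The C1q chains were 0.46 to 0.49 at 0.5 h, 0.91 to 1.03 at 4 h and 1.13 to 1.23 at 24 h, and C4b was 0.53, 1.42 and 1.21. At an unadjusted p under 0.05 there were 5 members at 4 h (all but Serping1, against 5.23% of all features) and 4 at 24 h (the C1q chains and C3ar1, against 6.53%). Sample 10 is in the 4 h group and sample 11 in the 24 h group. Without sample 10 the values at 4 h were 1.08 for C3ar1 and 0.12 for C4b, and without sample 11 those at 24 h were 0.53 and -0.34. Without sample 8 the values at 0.5 h were 0.58 and 0.24. For the C1q chains no such values were computed. Sample 11 had 144, 179 and 159 CPM of C1qa, C1qb and C1qc, against a next highest of 35.7, 47.1 and 37.0 CPM in its group. Sample 10 was at 3.64, 4.15 and 3.94 times the sham-injured mean. C5ar1, in the fit of all features with any count, was at 2.00 (SE 0.815, adjusted p = 0.923) at 0.5 h, 1.41 (SE 0.826, adjusted p = 0.955) at 4 h and 1.64 (SE 0.777, adjusted p = 0.983) at 24 h.

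No difference with time after injury was detectable in any member. A test of any difference between 0.5, 4 and 24 h within 1xCHI, 3xCHI and 5xCHI gave unadjusted p-values from 0.154 (Serping1) to 0.822 (C1qa) and adjusted values of 1, and 0.0328% of all features were called. The test of whether the time course differed between injury numbers gave unadjusted p-values from 0.215 to 0.807, with 0% of features called and 2.69% at an unadjusted p under 0.05.

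A slope per additional injury was fitted over 18 samples taken 24 h after the last injury, while time since the first injury rose with injury number. The slope was 0.39 log2 units (SE 0.148) for C3ar1, 0.32 (SE 0.149) for C4b, 0.26 (SE 0.0955) for C1qc, 0.23 (SE 0.0938) for C1qb, 0.22 (SE 0.0931) for C1qa and 0.087 (SE 0.0899) for Serping1. Of these, 5 had an unadjusted p under 0.05, as had 7.92% of 15746 features, and none passed adjustment (adjusted p = 0.584 to 0.858, 0% of features called). The slopes rested on sample 11. Without it they were 0.088 for C3ar1, 0.025 for C4b, 0.026 for C1qc, 0.0098 for C1qb, -0.0041 for C1qa and 0.055 for Serping1. The order of the groups was not one of steady increase either, since C1qa had mean levels of 27.9, 26.6, 34.2, 25.3 and 56.7 CPM at 24 h after 1 to 5 injuries.

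The rest of the complement system was described by 47 other genes, listed with earlier results of these data known. All 47 were in the table and 25 were tested. For 5xCHI against 1xCHI, 2 of the 25 rose, against 0.525% of all features called higher, and none fell. They were Itgb2, the beta chain of complement receptors CR3 and CR4 (1.00, SE 0.236, adjusted p = 0.0333), and Masp1, a protease of the lectin pathway (0.47, SE 0.111, adjusted p = 0.0337). Itgb2 had a mean of 6.87 CPM with an SD of 5.09 in the 10 samples of 5xCHI, against 3.31 CPM with an SD of 0.639 in the 10 of 1xCHI. In a fit of the compared groups alone 0 of all features were called, so neither gene was. The median of the 25 was -0.020. None was called against sham.

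C1ra and C1s1, which encode the proteases C1r and C1s that sit on C1q and that the Serping1 product inhibits, had higher means in every group with repeated injury than in sham-injured mice without passing adjustment. From sham to 5xCHI, in order of injury number, the means were 3.36, 3.45, 5.13, 6.01, 4.71 and 5.40 CPM for C1ra and 1.50, 2.03, 2.67, 2.92, 2.23 and 3.03 CPM for C1s1. Against sham the log2 fold changes after 3xCHI were 0.83 (SE 0.260) and 0.96 (SE 0.324), with unadjusted p-values of 0.00275 and 0.00526 and an adjusted p of 0.908. C4a, the near copy of C4b, had means of 1.98, 3.11, 2.23, 2.73, 1.75 and 2.78 CPM from sham to 5xCHI. Its log2 fold change after 1xCHI was 0.65 (SE 0.320, adjusted p = 0.293).

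Among regulators, the secreted inhibitor Clu (clusterin) was the most abundant gene of the list, with a mean of 797 CPM. It had a log2 fold change of 0.27 (SE 0.0951, adjusted p = 0.373) after 5xCHI against sham. The complement inhibitors Susd4, Csmd2 and Csmd1, the secreted C1q-like protein C1ql3 and the terminal pathway inhibitor Vtn had means of 115, 73.6, 62.3, 80.9 and 64.4 CPM. Csmd3, a membrane protein related to them, was 27.1 CPM in sham-injured mice, 21.3 after 1xCHI and 21.0 after 5xCHI, with log2 fold changes of -0.34 (SE 0.120, adjusted p = 0.236) and -0.38 (SE 0.120, adjusted p = 0.363). C1qbp, which encodes a mitochondrial protein named for binding C1q, was 0.22 (SE 0.0769, adjusted p = 0.241) after 1xCHI. The genes of the membrane attack complex on the list (Hc, C6, C7, C8a, C8b, C8g and C9, singled out after their values were seen) had means of 0.00136 to 0.818 CPM and none passed the filter.

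The members followed the glial marker lists to different degrees. The microglial sum ranged from 419 to 464 CPM in sham-injured mice and from 331 to 491 CPM after 1xCHI. It was 466 to 599 CPM after 3xCHI and 414 to 1148 CPM after 5xCHI. It too was without overlap between 3xCHI and sham, but only narrowly (lowest 466.4 against highest 463.7 CPM). The reactive astrocyte sum was 194 to 245, 177 to 509, 310 to 738 and 179 to 3736 CPM in the same groups. That sum was also without overlap between 3xCHI and sham, by a wider margin (310 against 245 CPM). The 3xCHI sample left out of the analysis is not in these ranges. How often such sums separate by chance was not tested. For 5xCHI against 1xCHI, 4 of 15 microglial markers were called (Csf1r, Cx3cr1, Laptm5 and Fcrls) and 2 of 8 tested reactive astrocyte markers (Serpina3n and S1pr3), all higher, against 0.525% of all features called higher. Without samples 10 and 11, 9 of 15261 features were called in all, and 0 in the fit of the compared groups alone. P2ry12, a microglial marker of the resting state, was at 0.023 (SE 0.0987, adjusted p = 0.939). The part of microglial or astrocyte numbers in the members' values was not tested.

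**Figure D4:**
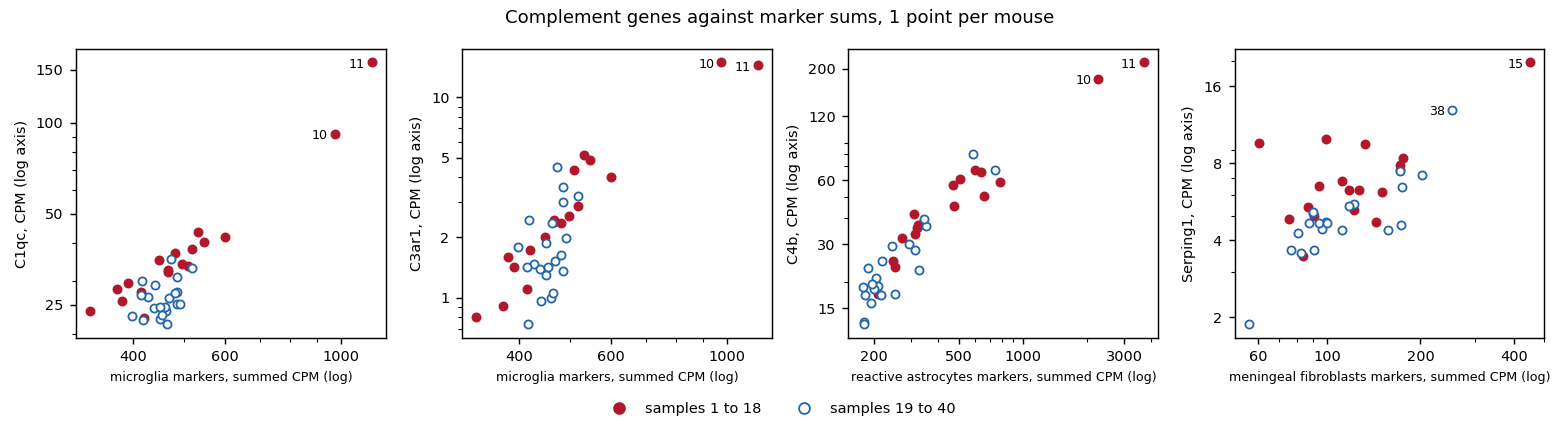
Level of C1qc, C3ar1, C4b and Serping1 against the summed level of a cell type marker list (microglia, microglia, reactive astrocytes and meningeal fibroblasts), in CPM on log axes, 1 point per mouse. Samples 10 and 11, and samples 15 and 38 in the last panel, are named. C4b follows the reactive astrocyte sum in both sample ranges.

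Of 24 relations computed between the 8 members and 3 marker sums (log2 scales, 100000 permutations, smallest possible p of 1e-05, Benjamini-Hochberg over each set of 24), the closest was that of C4b with the reactive astrocyte sum. Its r was 0.953 and its rho 0.922 (n = 39, permutation p = 1e-05 for both, adjusted 1.71e-05 and 3.43e-05). Without samples 10 and 11, the farthest 2, r was 0.931, and it was 0.969 in samples 1 to 18 and 0.915 in samples 19 to 40. The sum adds CPM, so abundant markers weigh most, and Gfap and Vim had means of 326 and 82.0 CPM. C3ar1 and the microglial sum had r = 0.868 and rho = 0.759 (permutation p = 1e-05 for both, adjusted 1.71e-05 and 3.43e-05), with r = 0.724 without samples 10 and 11, 0.961 in samples 1 to 18 and 0.450 in samples 19 to 40. C1qc and the microglial sum had r = 0.897 and rho = 0.626 (permutation p = 1e-05 and 4e-05, adjusted 1.71e-05 and 9.6e-05), with r = 0.604 without samples 10 and 11, 0.966 in samples 1 to 18 and 0.365 in samples 19 to 40. C1qa was less close to the microglial sum, with r = 0.831 and rho = 0.49 (permutation p = 1e-05 and 0.00191, adjusted 1.71e-05 and 0.00306) and r = 0.398, 0.930 and 0.262 in the same subsets. C5ar1, from few counts, had r = 0.484 and rho = 0.0982 with it (permutation p = 0.00298 and 0.551, adjusted 0.00447 and 0.661), and r = -0.029, 0.643 and -0.211 in these subsets. In each of the 8 members r was higher with the reactive astrocyte sum than with the microglial sum, over all samples and without samples 10 and 11, a difference that was not tested. For C1qc over all samples it was small (0.8971 against 0.8966). In samples 1 to 18 the order was reversed for C1qb (0.959 against 0.962), C1qc (0.951 against 0.966) and C3ar1 (0.924 against 0.961), as it was for rho of C3ar1 over all samples. For C1qa r was 0.901 and rho 0.745 with the reactive astrocyte sum (permutation p = 1e-05 for both, adjusted 1.71e-05 and 3.43e-05), with r = 0.750 without samples 10 and 11, 0.960 in samples 1 to 18 and 0.473 in samples 19 to 40. For C3ar1 r was 0.881 and rho 0.745 (permutation p = 1e-05 for both, adjusted 1.71e-05 and 3.43e-05), with r = 0.753 without samples 10 and 11, 0.924 in samples 1 to 18 and 0.695 in samples 19 to 40. For C1qc r was 0.897 and rho 0.698 (permutation p = 1e-05 for both, adjusted 1.71e-05 and 3.43e-05), with r = 0.743, 0.951 and 0.500 in the same subsets. Serping1 and the reactive astrocyte sum had r = 0.611 and rho = 0.717 (permutation p = 0.0001 and 3e-05, adjusted 0.00016 and 8e-05), with r = 0.606 without samples 10 and 11, 0.475 in samples 1 to 18 and 0.628 in samples 19 to 40. A member and a sum from the same library share its depth. The permutations ran freely over all 39 samples, so their p-values also reflect differences shared by the samples of a group or range.

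Markers of blood-borne myeloid cells had low levels, highest in samples 10 and 11. Of 10 blood-borne myeloid markers, 9 had any count and only Lyz2 was tested. Their sum was 3.66 to 5.92 CPM in sham-injured mice and 35.1 and 63.9 CPM in samples 10 and 11, and 3.16 to 26.6 CPM in all others. The 7 border macrophage markers summed to 9.33 and 11.9 CPM in samples 10 and 11, inside the sham-injured range of 8.87 to 16.7 CPM. The 6 choroid plexus markers, from tissue of the ventricles, summed to 2468 and 1292 CPM in samples 31 and 32, to 39.8 and 19.8 CPM in samples 33 and 34 and to 6.83 to 23.8 CPM in sham-injured mice. They were also high in sample 24 (866 CPM, 4xCHI), sample 12 (411 CPM, 5xCHI at 24 h) and sample 29 (149 CPM, 2xCHI), and were 2.78 to 45.8 CPM in the remaining injured mice. The part of these other cell types in the members' values was not tested.

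The genes whose pattern over the 39 samples was most like that of each member, by Spearman's rho of log2 CPM among all tested features, differed by role. After each other, the C1q chains were closest to Tmem176b (0.89 for C1qa and 0.90 for C1qb), a membrane protein of myeloid cells, and Tyrobp (0.91 for C1qc), the microglial signalling adaptor also known as DAP12. C4b was closest to Vim (0.92) and Gfap (0.91), which encode intermediate filaments of astrocytes and are part of the reactive astrocyte sum, and to Gsn (0.88). C3 was closest to Gsn (0.81), Igfbp5 (0.81) and C4b (0.80). Serping1 was closest to Slc13a3 (0.84), Lamb2 (0.84), a laminin chain of basement membranes, and Ifitm1 (0.82). C3ar1 was closest to Plek (0.88), the inflammatory marker of astrocytes Serpina3n (0.82) and the receptor Tlr2 (0.80), and C5ar1 to Pbxip1 (0.75), Pxn (0.75) and Gipr (0.74).

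Between members, rho with C4b was 0.80 for C3, 0.76 for Serping1, 0.67 for C3ar1 and 0.75 to 0.81 for the C1q chains (n = 39). In samples 19 to 40 (n = 21) these were 0.65, 0.53, 0.36 and 0.43 to 0.62. Serping1 and C1qa had a rho of 0.41 over all samples and -0.20 in samples 19 to 40. The receptors had a rho of 0.43 with each other. These are descriptions over samples that share groups, and the scarce C3 and C5ar1 counts limit theirs.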

How the data were processed

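RNA from the left somatomotor cortex of 40 mice was sequenced in bulk. The authors deposited a table of estimated counts per gene (Ensembl identifiers, salmon-type column names, 4.46% of values not whole), and the submitters' processing notes name mm10. The version of the counting tool was not given in the sources used here. Sample 30 was left out as in the study, which named it an outlier animal in its protein data. Expected counts were rounded, and a feature was kept when at most 4 of the 39 samples held under 10 counts of it, which left 15232 of 55539. Libraries held 15925995 to 27859530 counts, so 3 counts correspond to 0.108 to 0.188 CPM, counting error only. Among 46 pairs of samples of the same group no pair agreed within sampling noise (smallest mean chi-square per gene 6.84).

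Groups of injury number and time (12) were fitted together with edgeR 4.0.16 (TMM, quasi-likelihood test) in R 4.3.3, with Benjamini-Hochberg adjustment over all tested features and a threshold of 0.05. Injury numbers were compared with sham with time points combined. Alternatives used DESeq2 1.42.0, limma 3.58.1, sva 3.50.0, other scalings, filters and sample sets. The scripts were tested on simulated data with known changes. Levels, permutation tests and rank correlations used Python 3.11.15 with scipy 1.17.1, with a pseudocount of 0.5 CPM for rank likeness. Gene positions are from GENCODE M21, matched by identifier.

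The 8 members and all gene lists were chosen with earlier results of these data known. The text names the 8 members, of the 47 other complement genes those called, those with an unadjusted p under 0.05 against sham, C4a and the most abundant, and for each member the 3 most alike features.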

Additional observations from a re-analysis of the deposited data

Results flagged for a closer look

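In 56 sets of values (each member in each group of 4 to 10 samples), 11 had a sample far from the rest of its group by Dixon's criterion. For separate sets chance gives about 1 in 20 groups, or 2.8 sets. These sets are not separate, since members correlate and 5xCHI at 24 h lies within 5xCHI, so the 2 numbers are not a test. Sample 11 (5xCHI at 24 h) accounted for 7 of the 11 sets. Within its group of 4 it had 144 CPM of C1qa (next highest 35.7), 179 CPM of C1qb (next 47.1), 159 CPM of C1qc (next 37.0), 214 CPM of C4b (next 36.0) and 14.4 CPM of C3ar1 (next 2.37). Among all 10 samples after 5xCHI it also stood apart in C1qa, at 144 CPM against 86.0 CPM in sample 10, and in C1qc, at 159 CPM against 92.1 CPM.

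Sample 15 (1xCHI at 4 h) stood apart among the 10 samples after 1xCHI in C3 (1.09 CPM, next 0.594), C4b (60.5 CPM, next 37.5) and Serping1 (19.8 CPM, next 8.42). Sample 20 stood apart among the sham-injured mice in C1qa, at 26.7 CPM against 22.9 CPM in the next, a small difference within a narrow group.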

How the results depend on the processing

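For 5xCHI against 1xCHI at matched times, 1 member was called. The count was 3 with DESeq2, 0 with limma-trend, 0 in a fit of only the compared groups, 0 in samples 19 to 40, 5 with 1 surrogate variable, 4 in samples 1 to 18 and 0 without samples 10 and 11 (the last 2 settings chosen after seeing the data). Features called numbered 164, and 523, 115, 0, 7, 1096, 2241 and 9 under these settings, 394 with the sample range as a covariate and 99 with no filter. Leaving out each of 20 samples gave 0 to 3 members called, with C1qb and C1qc called in addition without sample 32, 33 or 34, where 1.92% to 2.17% of all features were called. Over the 20 fits 0 to 643 features (0% to 4.22%) were called. In the other comparisons no member was called under any setting run. Some values changed sign, among them that of C3ar1 for 5xCHI against 1xCHI (1.58) and those of C4b for 5xCHI against sham (1.50) and against 1xCHI (1.13). Against sham after 1xCHI these were C1qb -0.047, C1qc -0.020, C4b -0.035 and C3ar1 -0.00019 with the range as a covariate, C4b -0.075 and Serping1 -0.20 in samples 19 to 40, and C1qa -0.13, C1qb -0.21, C1qc -0.19, C4b -0.17 and C3ar1 -0.088 with a surrogate variable. After 2xCHI they were C4b 0.019 and C3ar1 0.045 (covariate), C3ar1 0.017 (samples 19 to 40), and C1qa -0.019 and C1qb -0.018 (surrogate variable). After 4xCHI they were Serping1 0.11 and C3ar1 0.035 (covariate) and Serping1 0.14 (samples 19 to 40). After 5xCHI they were C4b -0.42 and Serping1 -0.031 (samples 19 to 40). Against the preceding injury C4b was -0.12 at 4 h after 3xCHI and -0.47 at 0.5 h after 5xCHI (covariate), and at 24 h after 5xCHI -0.80 in samples 19 to 40 and -0.34 without samples 10 and 11. For 5xCHI against 1xCHI C4b was -0.35 and C3ar1 -0.40 (samples 19 to 40) and Serping1 -0.16 (without samples 10 and 11), and for 3xCHI against 1xCHI Serping1 was -0.17 (samples 1 to 18). Slopes at 24 h were C1qa -0.028, C1qb -0.044 and C1qc -0.027 (samples 19 to 40) and C1qa -0.0041 (without samples 10 and 11). Leaving out single samples gave ranges that crossed 0 for Serping1 after 1xCHI (-0.14 to 0.39) and 4xCHI (-0.32 to 0.39) against sham, C3ar1 after 2xCHI (-0.74 to 0.24) and 4xCHI (-0.27 to 0.085), Serping1 for 3xCHI (-0.069 to 0.39) and 5xCHI (-0.097 to 0.36) against 1xCHI, C4b at 24 h after 5xCHI against 4xCHI (-0.34 to 1.58) and the C1qa slope (-0.0041 to 0.26). The cause was not tested. Of 712 other values of single members 667 kept direction and side of the threshold, as did 711 of 746 with a sample left out. No paired analysis was possible because each sample number occurs once. 3xCHI against 1xCHI at matched times was not run in samples 19 to 40, which hold no 3xCHI sample at 4 h, nor DESeq2 for the tests of time. Low counts limit C3 and C5ar1.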

Other observations

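Sample 30 (3xCHI at 4 h), left out above, had 24.9 CPM of C1qa, 27.9 of C1qb, 22.9 of C1qc, 16.3 of C4b, 4.05 of Serping1 and 2.19 of C3ar1, with 3 counts of C3 and 11 of C5ar1. Unlike the 9 other samples after 3xCHI it was inside the sham-injured range in C1qa, C1qb and C1qc, and its C3ar1 level was above every sham-injured mouse.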
